A study of Rattus norvegicus with 20 samples.

Results

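Nuclear receptors are transcription factors that sense small lipophilic signals, and 31 of their genes were followed in the rat supraoptic nucleus (SON) as it aged and as the animals were dehydrated. The 31 were listed by symbol and leave out the receptors grouped with the stress axis and the clock. Rora and Rorb, whose group also takes part in the clock, are among the 31. The tables hold 32402 genes in all. Of the 31, 29 had a mean of at least 10 normalized counts in every comparison and were tested. The other two, Nr5a2 and Nr0b1, were too low: no rat exceeded 3.96 normalized counts for Nr5a2 or 7.93 for Nr0b1. Nr5a2 encodes the orphan receptor LRH-1, and Nr0b1 encodes DAX1, which lacks a usual DNA-binding domain and represses other receptors.

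Most of these receptors share a zinc finger domain that binds DNA and a pocket that binds the ligand. Receptors for thyroid hormone, retinoic acid, oxysterols, fatty acids and vitamin D work mainly as heterodimers with a retinoid X receptor (RXR, genes Rxra, Rxrb and Rxrg), whereas the oestrogen and progesterone receptors pair with themselves. Orphan receptors such as the COUP-TF group are best known as regulators of neural development. The SON holds the magnocellular neurons that release vasopressin and oxytocin, and oestrogen receptor β (Esr2) has long been known in its vasopressin neurons.

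The rats were male Wistar Han, 5 in each of 4 groups. Adult rats were 3 months old and aged rats 18 months old. Euhydrated rats (EH) had water throughout, and dehydrated rats (DH) had it withdrawn for 2 days according to the labels, while the study's methods state a longer period. No group carried a genetic change or another agent. The methods state that rats were housed in groups and that whole cages were assigned to EH or DH, and which rats shared a cage is not given in the sources used here, so a part played by the cage cannot be told apart from the treatment. Each library is poly(A) RNA of SON punches from a single rat. Reads on genes came to between 24268398 and 30348118 per rat, with a median of 27691999. Values below are normalized counts, which are read counts divided by a library size factor, and they compare a gene between rats but not one gene with another. LFC is the log2 fold change of the normalized count plus 1. A gene was called at a Benjamini-Hochberg adjusted p under 0.05 over all genes tested by limma, which is the adjusted p given throughout. Means are given ± SD, with n = 5 rats in every group.

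The punches were rich in the defining genes of magnocellular neurons: Avp, the vasopressin gene, had at least 113731 normalized counts in each adult rat and Oxt, the oxytocin gene, at least 71073. They also held glia, since Gfap, the astrocyte filament gene, had at least 33963 in each adult rat. In such bulk tissue, fewer cells of a type and less RNA per cell cannot be told apart.

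In dehydration a small set of these receptors was called lower and none was called higher. In adult rats 5 of the 29 were called (17.2%), all lower in DH: Rxrg, Esr2, Rxrb, Nr2e1 and Nr2f1. Of all 15280 genes tested there, 12.7% were called, and 4.99% were called lower. In aged rats 4 of 29 were called (13.8%), again all lower: Rxrg, Esr2, Nr2f2 and Thrb. The background was 7.29% of 15346 genes called and 3.25% called lower. In ageing 1 of 29 was called (3.45%), Thra, which was lower in aged EH, against 5.99% of 15369 genes. Several of these calls were lost in fits that left out a single rat, as given below. The median LFC of the 29 was -0.07 in adult DH (all genes -0.01), 0.01 in aged DH (all genes -0.003) and -0.01 in ageing (all genes 0.0003). In adults the EH and DH rats did not overlap in 4 of the 29, against 10.9% of all genes. In aged rats they did not overlap in 2 of the 29, against 7.05%, and in ageing the groups did not overlap in 1 of the 29, against 6.38%.

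**Figure D1:**
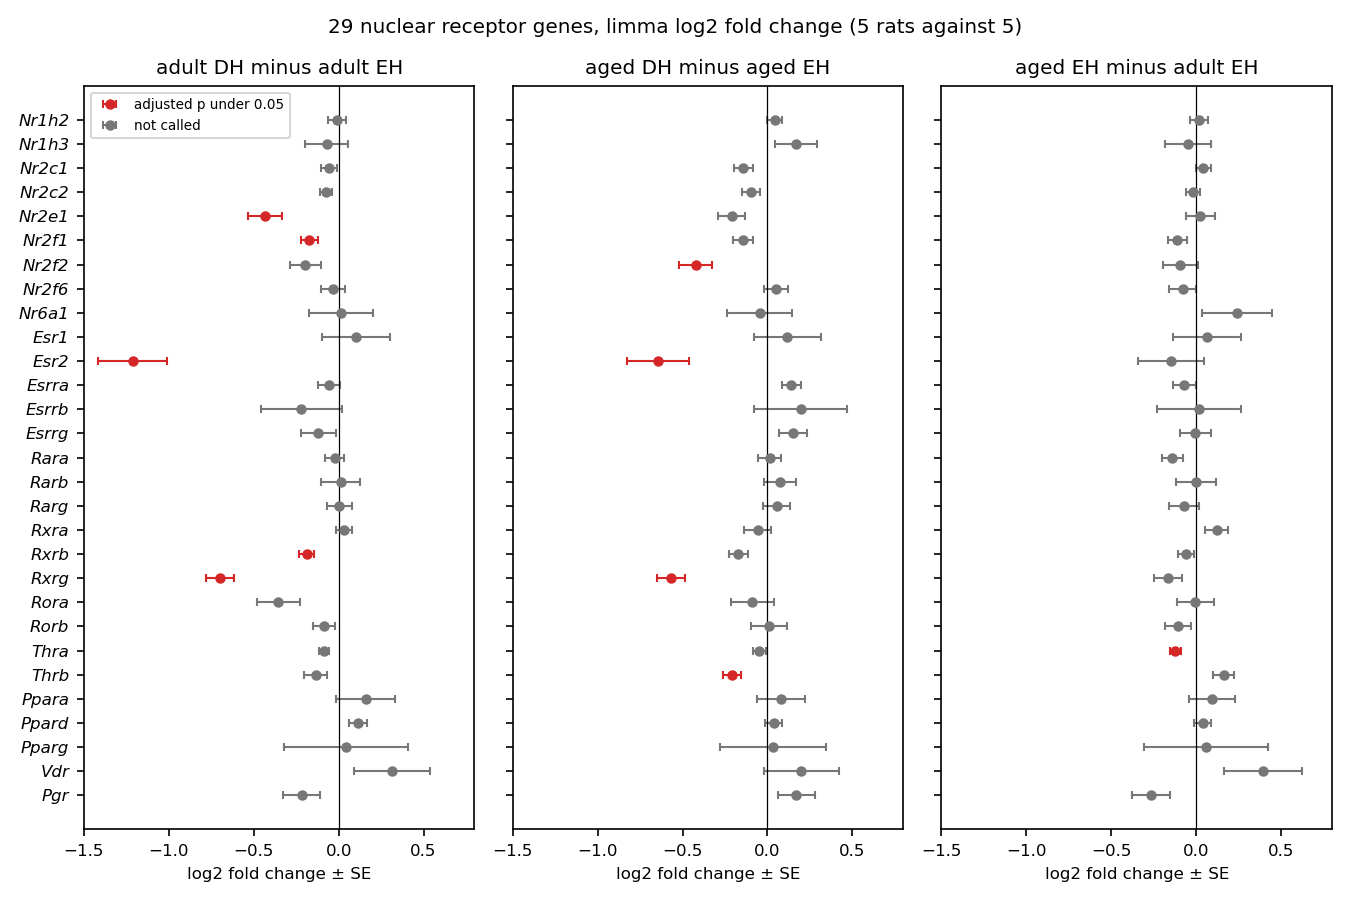
Log2 fold change (x axis) of the 29 tested nuclear receptor genes (y axis) in adult DH, aged DH and ageing. Points are limma estimates from 5 rats against 5, bars are their standard errors, and red marks an adjusted p under 0.05. Rxrg and Esr2 lie left of 0 in red in both dehydration panels, and no gene lies right of 0 in red.

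Rxrg and Esr2 were the members called at both ages, and the RXR family held members that were called and a member that was not. The 250 bases before the start of each of these genes are therefore shown, read from RefSeq on the assembly GRCr8, 5′ to 3′ on the gene's own strand. The files were made on another assembly, Rn6, so these positions are RefSeq's and not the files'. Rxrg is at chr13:82276237-82276486 (+ strand), Rxrb at chr20:4824660-4824909 (- strand), Rxra at chr3:31387642-31387891 (+ strand) and Esr2 at chr6:100644710-100644959 (- strand). Capitals mark GGGCGG, the box bound by Sp1, or its reverse complement.
Rxrg: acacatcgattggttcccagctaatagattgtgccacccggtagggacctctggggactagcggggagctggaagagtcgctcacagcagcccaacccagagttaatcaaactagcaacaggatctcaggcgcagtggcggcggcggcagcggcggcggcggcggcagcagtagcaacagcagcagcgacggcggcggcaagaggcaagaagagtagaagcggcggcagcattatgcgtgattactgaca
Rxrb: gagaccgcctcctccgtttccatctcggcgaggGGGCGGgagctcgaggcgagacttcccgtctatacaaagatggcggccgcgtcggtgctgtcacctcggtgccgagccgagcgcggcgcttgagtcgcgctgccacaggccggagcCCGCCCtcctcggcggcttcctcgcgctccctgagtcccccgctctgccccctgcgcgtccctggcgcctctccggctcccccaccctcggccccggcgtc
Rxra: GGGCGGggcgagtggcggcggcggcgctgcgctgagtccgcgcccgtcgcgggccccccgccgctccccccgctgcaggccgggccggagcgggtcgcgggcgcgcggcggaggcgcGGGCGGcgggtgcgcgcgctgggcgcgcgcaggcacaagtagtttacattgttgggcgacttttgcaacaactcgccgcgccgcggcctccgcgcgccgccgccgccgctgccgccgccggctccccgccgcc
Esr2: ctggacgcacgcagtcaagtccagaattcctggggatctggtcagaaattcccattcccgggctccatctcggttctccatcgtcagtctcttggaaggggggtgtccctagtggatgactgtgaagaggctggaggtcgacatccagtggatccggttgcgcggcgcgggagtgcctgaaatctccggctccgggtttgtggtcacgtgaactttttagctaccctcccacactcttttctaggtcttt
Rxrb and Rxra each held 2 matches to GGGCGG, while the windows of Rxrg and Esr2 held none. The box was held, in the same 250 bases, by 30.5% of all 33469 promoters of RefSeq and by 18 of the 35 windows of the members (51.4%). It consists of G and C only, and these shares, which count windows and not genes, were not adjusted for GC content. GC content was 60.8% for Rxrg, 74.0% for Rxrb, 82.8% for Rxra and 56.4% for Esr2, against a median of 51.2% over all promoters. The nuclear receptor half-site AGGTCA, the cAMP response element TGACGTCA and the AP-1 site TGANTCA were searched on both strands and had no match in these 4 windows. No searched motif contains another. RefSeq windows were found for 29 of the 31 members, which have 35 windows because some genes have several starts. AGGTCA was in 4 of the 35 (those of Esrrg, Nr0b1, Nr5a2 and Rarg) and in 14.1% of all promoters. TGACGTCA was in 1 of the 35, that of Nr2e1, and in 1.59% of all. TGANTCA was in 1 of the 35, that of Pparg, and in 6.34% of all. These are matches of letters only, not binding sites.

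Rxrg, which encodes RXRγ, the most tissue-restricted of the RXRs, fell with DH at both ages. In adult EH rats it had 518, 486, 517, 566 and 547 normalized counts. In adult DH rats it had 299, 288, 398, 309 and 332. Every adult DH rat lay below every adult EH rat, and the replicate at 398 was the nearest to them. The LFC was -0.70 (SE 0.0826, adjusted p = 9.26e-05, limma), so that it fell by 38.5%. In aged EH rats the values were 571, 448, 415, 512 and 505. In aged DH rats they were 334, 357, 311, 341 and 302. Again the groups did not overlap, with an LFC of -0.57 (SE 0.0846, limma adjusted p = 0.00164), so Rxrg fell by 32.5%. The call held with each rat left out in turn at both ages, with LFCs from -0.78 to -0.66 in adults and from -0.63 to -0.51 in aged rats. With age alone Rxrg had 491 ± 60.98 in aged EH and 549 ± 32.5 in adult EH, which did not pass the test (LFC -0.17, limma adjusted p = 0.267).

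Rxrb, which encodes the broadly expressed RXRβ, fell in adults by a smaller amount. Its adult EH values were 1510, 1629, 1602, 1552 and 1490. Its adult DH values were 1446, 1409, 1381, 1298 and 1295. The groups did not overlap, but the highest DH rat and the lowest EH rat were close. The LFC was -0.19 (SE 0.0416, limma adjusted p = 0.00947). Aged EH rats had 1619, 1567, 1503, 1675 and 1403, and aged DH rats had 1315, 1479, 1376, 1261 and 1470. Here 2 DH rats exceeded the lowest EH rat, and with an LFC of -0.17 (SE 0.0569, limma adjusted p = 0.0897) the gene was not called. In RefSeq, Rxrb overlaps Slc39a7, a zinc transporter gene, by position, and the strand setting used in counting is not given in the sources used here. Slc39a7 had an LFC of 0.10 in adult DH and 0.14 in aged DH (limma adjusted p = 0.158 and 0.195), and any part of it in the values of Rxrb was not tested.

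Rxra, which encodes RXRα, was not called in any comparison. It had 794 ± 29.3 in adult DH and 778 ± 42.9 in adult EH, an LFC of 0.03 with an SE of 0.0476. In aged rats it had 848 ± 81.8 in DH and 883 ± 94.1 in EH, an LFC of -0.06 with an SE of 0.0788. Relative to both other RXR genes in the same rat, Rxrg was lower in DH. These ratios, and those of other families below, reuse the values of genes already tested and are not separate support. The log2 ratio of Rxra to Rxrg within a rat was 0.56 ± 0.0474 in adult EH and 1.29 ± 0.229 in adult DH, with no overlap. In aged rats it was 0.85 ± 0.132 in EH and 1.36 ± 0.176 in DH, also with no overlap. The exact two-sided permutation p was 0.00794 at each age, the smallest that 5 against 5 can give. Ratios were compared for the 22 pairs of tested members of the same family in each comparison, and after Benjamini-Hochberg adjustment over those pairs this p became 0.0582 in adults and 0.0437 in aged rats. Rxrb to Rxrg moved the same way, by 0.51 in adults and 0.40 in aged rats (exact permutation p = 0.00794 in both, adjusted p = 0.0582 and 0.0437). Neither adult ratio passed an adjusted p of 0.05.

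**Figure D2:**
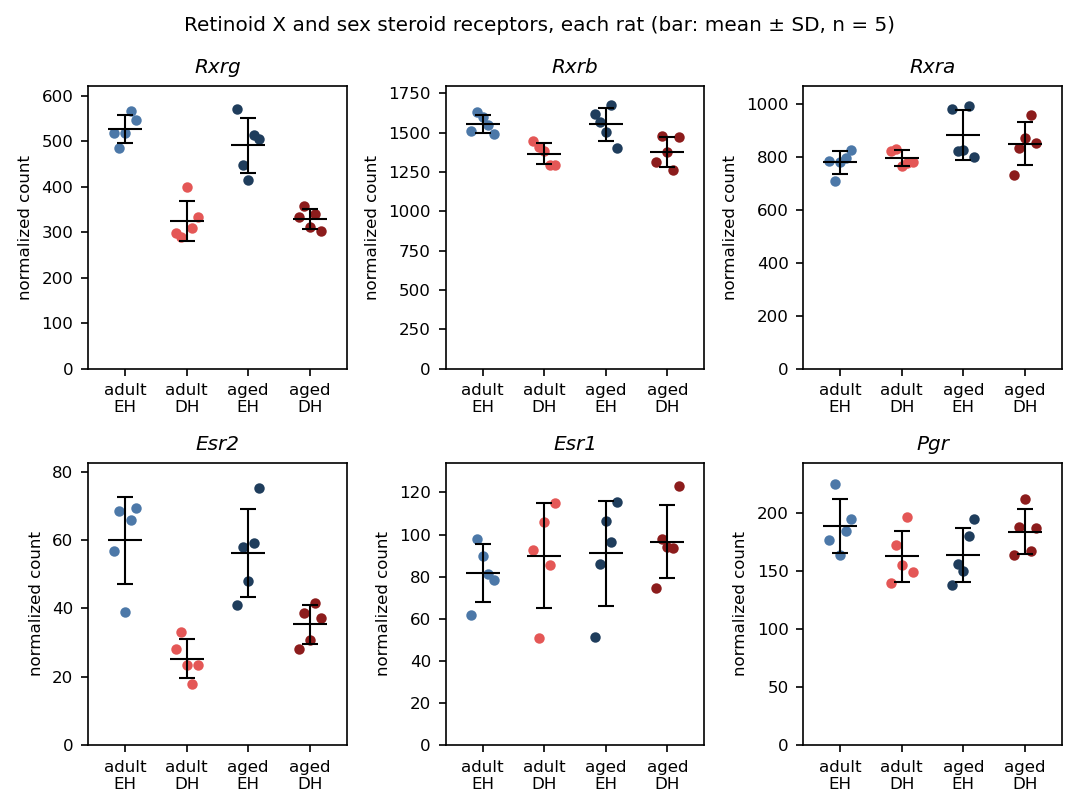
Normalized counts (y axis, from 0) of the RXR genes and of the oestrogen and progesterone receptor genes in each rat, by group (x axis), with mean ± SD. Adult and aged rats come from separately scaled tables. Rxrg and Esr2 sit lower in DH than in EH at both ages, Rxra and Esr1 do not, and Pgr spans 138 to 226 over all groups.

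Among the sex steroid receptors, only Esr2 was called. It had the lowest LFC of the 29 in each dehydration comparison, at a low level of expression. In adult EH rats Esr2 had 56.8, 68.6, 39.0, 65.8 and 69.5 normalized counts. In adult DH rats it had 28.1, 33.2, 23.5, 18.0 and 23.4. The groups did not overlap, and the EH rat at 39.0 was the nearest to DH. The LFC was -1.21 (SE 0.202, limma adjusted p = 0.00153), so Esr2 fell by 56.9%, and the call held with each rat left out. In aged EH rats the values were 41.0, 57.97, 48.0, 58.96 and 75.1. In aged DH rats they were 28.2, 38.5, 30.7, 41.7 and 37.3. A single DH rat, at 41.7, exceeded the lowest EH rat. The LFC was -0.64 (SE 0.183, limma adjusted p = 0.0483), and this call was thin: it was lost without any single rat other than aged EH replicate 1, reaching an adjusted p of 0.111, and with no filter on low values (limma adjusted p = 0.0904). With age alone Esr2 was 56.3 ± 13.1 in aged EH against 62.5 ± 13.2 in adult EH (limma adjusted p = 0.748).

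Esr1, the gene of oestrogen receptor α, was not called. It had 90.0 ± 24.8 in adult DH against 81.8 ± 13.7 in adult EH, and 96.7 ± 17.3 in aged DH against 91.1 ± 24.9 in aged EH. The within-rat log2 ratio of Esr1 to Esr2 was higher in DH by 1.31 in adults (exact permutation p = 0.0159, adjusted over the 22 pairs 0.0698) and by 0.76 in aged rats (exact permutation p = 0.00794, adjusted 0.0437). Pgr, the progesterone receptor gene, had 163 ± 22.3 in adult DH against 189 ± 23.3 in adult EH and 184 ± 19.5 in aged DH against 164 ± 23.3 in aged EH. Its LFC was -0.22 in adult DH and 0.17 in aged DH, neither of which was called (limma adjusted p = 0.221 and 0.409). With age alone its LFC was -0.26 (limma adjusted p = 0.200).

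Of the orphan receptors of the NR2 group, Nr2e1, Nr2f1 and Nr2f2 were each called at a single age. Nr2e1 encodes TLX, known for keeping neural stem cells in an undifferentiated state. In adult EH rats it had 239, 193, 224, 251 and 234 normalized counts, and in adult DH rats 185, 174, 148, 192 and 146. The groups did not overlap, though the highest DH rat and the lowest EH rat nearly met. The LFC was -0.44 (SE 0.1001, limma adjusted p = 0.0120), and the call held with each rat left out. Aged EH rats had 222, 218, 258, 252 and 257, and aged DH rats had 209.7, 196, 211, 203 and 221. Of these, 1 DH rat exceeded the lowest EH rat, and the LFC of -0.21 was not called (SE 0.0778, limma adjusted p = 0.125).

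Nr2f1 and Nr2f2 encode COUP-TFI and COUP-TFII, which pattern the developing forebrain. Nr2f1 had 1530, 1373, 1367, 1456 and 1441 in adult EH and 1375, 1146, 1239, 1341 and 1268 in adult DH. A single DH rat lay above the 2 lowest EH rats. The LFC of -0.17 (SE 0.0509, limma adjusted p = 0.0412) lost its call without adult EH replicate 1, 5 or 6 or adult DH replicate 2, 3 or 5, with an adjusted p of up to 0.101. In aged rats Nr2f1 had 1498, 1253, 1407, 1510 and 1254 in EH and 1169, 1278, 1309, 1245 and 1251 in DH. The groups overlapped, and the LFC was -0.14 (SE 0.0588, limma adjusted p = 0.169).

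Nr2f2 went the other way round, being called in aged but not in adult rats. In aged EH it had 2578, 1883, 2461, 2414 and 1892, and in aged DH 1573, 1686, 1722, 1431 and 1936. A single DH rat, at 1936, exceeded the 2 lowest EH rats. The LFC was -0.42 (SE 0.0964, limma adjusted p = 0.0164) and the adjusted p was 0.0509 without aged EH replicate 5. In adult EH it had 2490, 1830, 2261, 2639 and 2275, and in adult DH 2195, 1699, 2105, 2193 and 1826. These overlapped widely, and the LFC was -0.20 (SE 0.0936, limma adjusted p = 0.200). In the same aged rats 3 of 6 markers of forebrain glutamatergic neurons fell in DH (Slc17a7, Neurod6 and Neurod2). The summed level of the 6 was 864 to 1620 in aged DH and 1676 to 4062 in aged EH, with no overlap, and no marker was at 0, the lowest level of Neurod6 being 7.12. In adult DH none of the 6 was called by limma, and the sum was 920.1 to 2332 in DH and 953 to 3099 in EH. Their part in the values of Nr2f2 and of the other receptors called in aged DH was not tested. Nr2f6, a relative of both, was not called (LFC -0.03 in adult DH and 0.05 in aged DH).

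Thyroid hormone receptors showed small differences. Thrb encodes TRβ, which takes part in feedback by thyroid hormone, and Thra encodes TRα, the main form in brain. Thrb had 1120, 1025, 1175, 1068 and 1014 in aged EH and 968, 908, 891, 893 and 1008 in aged DH. No DH rat reached an EH rat, although the nearest were 1008 and 1014. The LFC was -0.21 (SE 0.0533, limma adjusted p = 0.0288) and lost its call without aged EH replicate 1, 4 or 5 or aged DH replicate 2, 3 or 5, reaching 0.0777. In adults Thrb had 931, 851, 885, 1066 and 915 in EH and 944, 778, 809, 890.1 and 808 in DH. The groups overlapped, with an LFC of -0.14 (SE 0.0666, limma adjusted p = 0.213). With age alone it was 1083 ± 65.7 in aged EH and 969 ± 85.9 in adult EH, an LFC of 0.16 that was not called (limma adjusted p = 0.147).

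Thra was the single member called with age. In adult EH rats it had 11593, 11260, 11320, 11461 and 10775 normalized counts, and in aged EH rats 10470, 9773, 10646, 10586 and 10319. No aged rat reached an adult rat, the nearest being 10646 and 10775. The LFC was -0.12 (SE 0.0324, limma adjusted p = 0.0404), so Thra fell by 8.19%. The call was lost without any single rat other than aged EH replicate 4 or adult EH replicate 6, with an adjusted p of up to 0.0983, and also with no filter on low values (limma adjusted p = 0.0608). In the same rats 5 of 8 oligodendrocyte markers fell with age, with summed levels of 243078 to 294229 in aged EH and 273148 to 398031 in adult EH. Also called lower were 2 of 8 astrocyte markers (Gja1 and Aqp4) and 2 of 5 oligodendrocyte precursor markers (Gpr17 and Pdgfra). So were 1 of 4 endothelial markers (Kdr) and 4 of 7 meningeal markers, while 1 of 5 choroid plexus markers rose (Clic6). Microglial markers rose, 3 of 8, with sums of 8371 to 9564 in aged EH and 7074 to 8179 in adult EH, which did not overlap. Of 4 tested markers of the suprachiasmatic nucleus 1 fell (Rgs16, LFC -0.31). Vip (LFC -0.08), Lhx1 (LFC -0.08) and Prokr2 (LFC -0.33) were not called. The sums of the 5 genes of this list, tested or not, did not overlap either, at 566 to 666 in aged EH and 705 to 809 in adult EH. Magnocellular markers rose, 4 of 8. The part of these markers in the result for Thra was not tested. In the table of adult DH, Thra had 11124, 10820, 10841, 10994 and 10336 in EH and 9865, 10319, 10305, 10496 and 9998 in DH. Only the lowest EH rat fell within the DH range, and the LFC of -0.09 (SE 0.0283, limma adjusted p = 0.0642) was not called by limma on the authors' scaling, though DESeq2 and 2 other scalings called it. The adult EH rats are the same 5 animals in this comparison and in ageing. In the table of aged DH, Thra had 10454, 9759, 10644, 10577 and 10254 in EH and 9620, 10140, 10392, 9593 and 10297 in DH, with overlap, where the LFC was -0.05 (SE 0.0358) and the limma adjusted p = 0.506.

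In RefSeq, Thra overlaps the clock gene Nr1d1 and the Mediator subunit gene Med24 by position. In ageing these had LFCs of -0.06 and 0.03 (limma adjusted p = 0.596 and 0.729). In adult DH Nr1d1 fell (LFC -0.50, limma adjusted p = 0.00368), as it did in aged DH (LFC -0.19, limma adjusted p = 0.0215), and any part of it in the values of Thra was not tested. The within-rat log2 ratio of Thra to Thrb was 3.26 ± 0.0640 in aged EH and 3.54 ± 0.118 in adult EH, with no overlap (exact permutation p = 0.00794, adjusted over the 22 pairs 0.0873). In aged DH the ratio was 3.42 ± 0.0937, higher than in aged EH by 0.16 (exact permutation p = 0.0159, adjusted 0.0582).

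**Figure D3:**
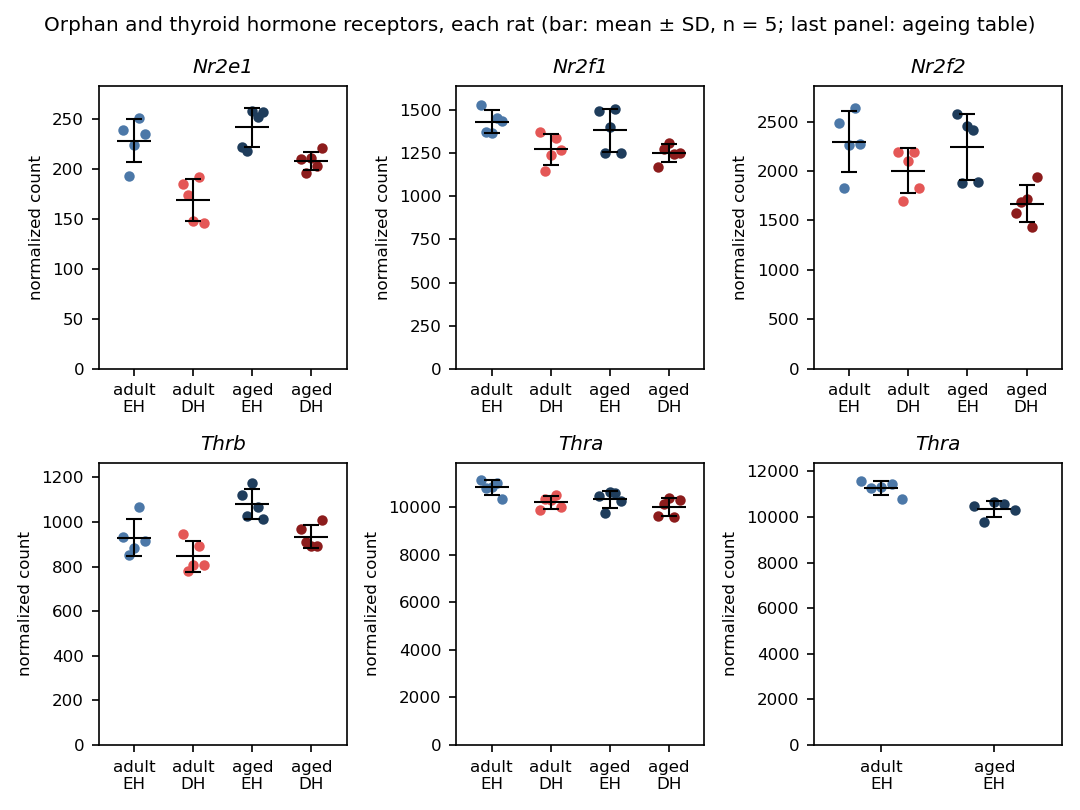
Normalized counts (y axis, from 0) of Nr2e1, Nr2f1, Nr2f2, Thrb and Thra in each rat, by group (x axis), with mean ± SD. The last panel shows Thra in the ageing table, where the 5 aged rats lie between 9773 and 10646 and the 5 adult rats between 10775 and 11593.

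**Figure D4:**
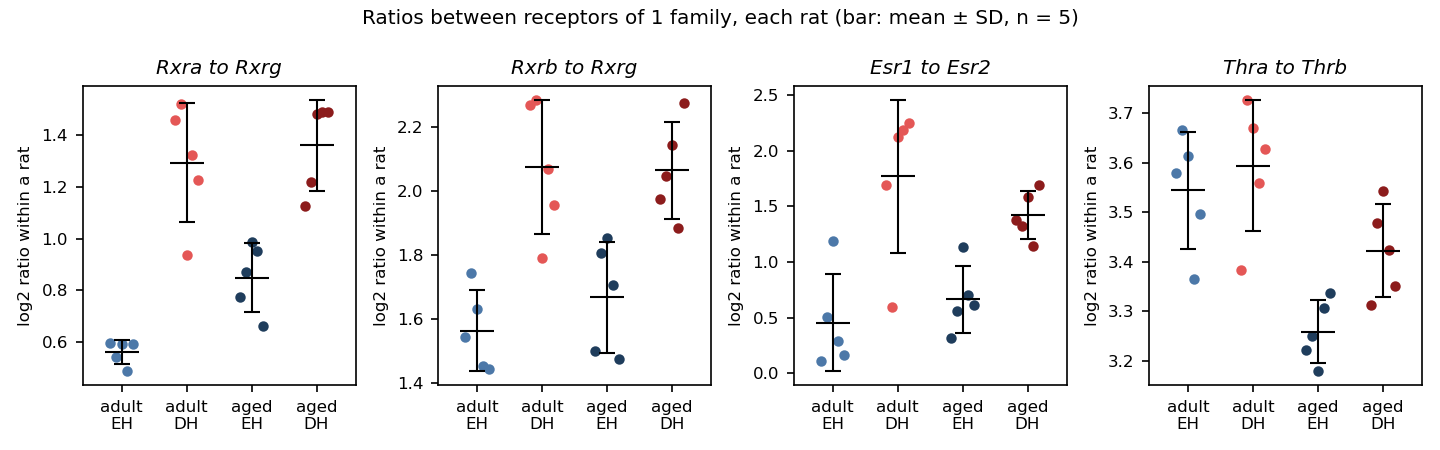
Log2 ratio of the normalized counts (plus 1) of a pair of receptors of the same family within each rat (y axis), by group (x axis), with mean ± SD of 5 rats. Rxra to Rxrg and Rxrb to Rxrg lie higher in DH at both ages with no overlap, and Thra to Thrb lies lowest in aged EH.

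The remaining tested members were called in no comparison. The retinoic acid receptors Rara, Rarb and Rarg had LFCs between -0.02 and 0.07 in the 2 dehydration comparisons, and Rara had an LFC of -0.14 in ageing (limma adjusted p = 0.205). Rora, which encodes an orphan receptor that binds sterols, had 59.3 ± 8.09 in adult DH and 75.8 ± 6.204 in adult EH, an LFC of -0.36 that came near the threshold (SE 0.126, limma adjusted p = 0.0838). In aged rats it had 74.2 ± 10.9 in DH and 78.4 ± 5.16 in EH (limma adjusted p = 0.752). Its relative Rorb had LFCs of -0.09 and 0.01.

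The oestrogen-related receptors regulate mitochondrial genes without binding oestrogen. Esrra was at 756 ± 25.0 in aged DH rats against 687 ± 51.6 in EH rats, an LFC of 0.14 (SE 0.0561, limma adjusted p = 0.157), and in adult DH its LFC was -0.05. Esrrg had LFCs of 0.15 in aged DH and -0.12 in adult DH, and Esrrb, with 18.4 ± 5.92 to 26.3 ± 8.16 normalized counts over the groups of the dehydration tables, had 0.20 and -0.22. None of these was called.

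The oxysterol receptors Nr1h2 and Nr1h3, which encode LXRβ and LXRα, had LFCs of -0.01 and -0.07 in adult DH and of 0.04 and 0.17 in aged DH. Nr2c1 and Nr2c2 encode the testicular receptors TR2 and TR4. Nr2c1 had LFCs of -0.06 in adult DH and -0.14 in aged DH (limma adjusted p = 0.511 and 0.1499), and Nr2c2 had -0.08 and -0.10 (limma adjusted p = 0.191 and 0.316). Vdr, the vitamin D receptor gene, was low, at 23.9 ± 2.30 in adult EH and 34.4 ± 10.7 in aged EH in the dehydration tables, with an LFC of 0.39 in ageing (SE 0.228, limma adjusted p = 0.371). Nr6a1, which encodes the germ cell nuclear factor, had between 34.9 ± 6.67 and 43.4 ± 11.0 and LFCs of 0.01 and -0.04 in DH.

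The peroxisome proliferator-activated receptors (PPARs) sense fatty acids and switch on the genes of fatty acid oxidation. None of the 3 was called. Ppara had 68.1 ± 16.1 in adult DH and 59.4 ± 5.23 in adult EH, and 70.002 ± 8.92 and 66.3 ± 10.2 in aged rats. Ppard had 706 ± 47.3 and 652 ± 25.2 in adults (LFC 0.11, limma adjusted p = 0.190), and 714 ± 24.2 and 696 ± 34.0 in aged rats. Pparg was close to the limit of the filter, at 15.2 ± 5.42 to 16.4 ± 6.11 over the groups of these tables.

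A list of 10 genes known as PPAR targets was followed beside the receptors, and 9 were tested. In adult DH, where 12.7% of all genes were called in either direction, 5 of the 9 rose and none fell. Pdk4 (LFC 0.92), Angptl4 (0.59), Ucp2 (0.46) and Cpt1a (0.16) were among those that rose. Their limma adjusted p values ran from 7.66e-04 to 0.0358. Pdk4 encodes a kinase that turns off pyruvate oxidation, Angptl4 an inhibitor of lipoprotein lipase, Ucp2 a mitochondrial carrier and Cpt1a the carnitine transferase that brings fatty acids into mitochondria. Pdk4 had 125 to 165 normalized counts in adult EH (median 157) and 233 to 376 in adult DH (median 245), with no overlap. In aged DH, where 7.29% of all genes were called in either direction, 3 of the 9 rose. Angptl4 (LFC 0.60, limma adjusted p = 0.00531) and Cpt1a (LFC 0.21, limma adjusted p = 0.0139) were among them. Angptl4 had 194 to 296 in aged EH (median 231) and 316 to 404 in aged DH (median 393), with no overlap. Pdk4 and Ucp2 had LFCs of 0.35 and 0.42 in aged DH and were not called (limma adjusted p = 0.0887 and 0.0638). The median LFC of the 9 was 0.16 in adult DH and 0.21 in aged DH, beside -0.01 and -0.003 for all genes. With age alone 0 of the 9 were called by limma, and 2 had an unadjusted p under 0.05, as did 20.3% of all genes tested. Several of these genes, Pdk4 and Angptl4 among them, are also known targets of the glucocorticoid receptor.

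**Figure D5:**
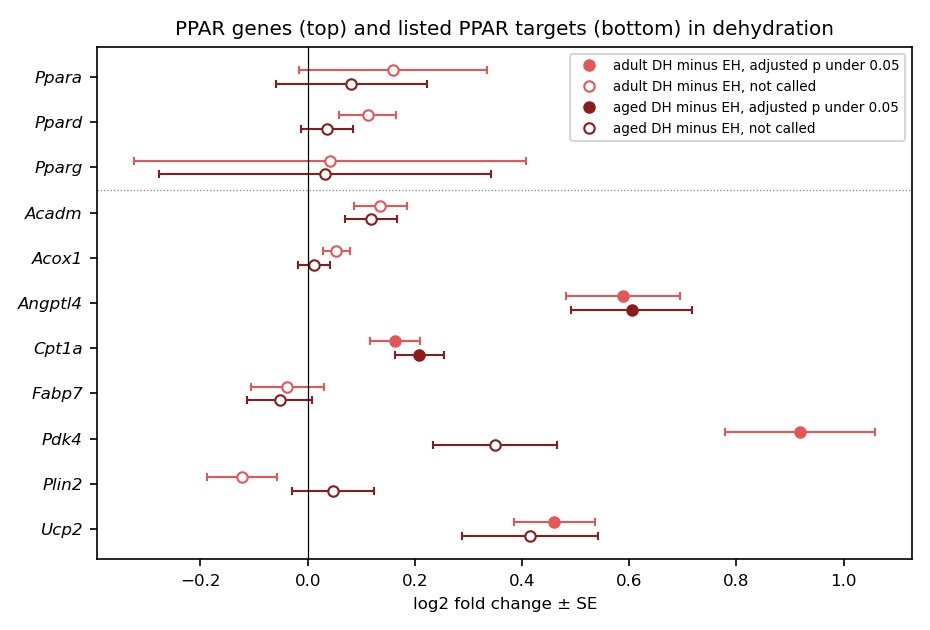
Log2 fold change with standard error (x axis) of the 3 PPAR genes, above the dotted line, and of 8 of the tested PPAR target genes, below it (y axis), in adult DH and aged DH. Filled points have a limma adjusted p under 0.05. Pdk4, Angptl4, Ucp2 and Cpt1a are filled in adults and Angptl4 and Cpt1a in aged rats.

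Genes that supply, transport or answer to retinoids moved in both directions. The share called over all genes was 12.7% in adult DH, 7.29% in aged DH and 5.99% in ageing. Of 12 retinoid handling genes tested in adult DH, 1 rose and 2 fell. Rbp4, the plasma carrier of retinol, rose (LFC 0.56, limma adjusted p = 0.00414). Stra6, its membrane receptor, fell (LFC -0.88, limma adjusted p = 0.0104). In aged DH 1 of 13 fell, Cyp26b1, which breaks down retinoic acid (LFC -0.90, limma adjusted p = 0.0395). In ageing 2 of 13 fell: Aldh1a2, which makes retinoic acid (LFC -0.67, limma adjusted p = 0.00548), and Crabp1, which binds it (LFC -0.68, limma adjusted p = 0.0486). Aldh1a2 is also a marker of meningeal cells, of whose 7 tested markers 4 fell with age, Aldh1a2 among them. The summed level of the 8 genes of this list, tested or not, was 40087 to 77544 in aged EH and 52545 to 102331 in adult EH. Its part in the result was not tested. Among 7 retinoic acid target genes tested in adult DH, Tgm2, which encodes tissue transglutaminase, rose (LFC 0.43, limma adjusted p = 0.00486). Stra6, which is on both lists, was among the 2 that fell. Of the 8 tested in aged DH, Cyp26b1 was the 1 that fell, and none was called with age.

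Genes that respond to thyroid hormone were followed in the same way. Of 7 tested, 3 were called in adult DH, 1 in aged DH and 1 in ageing. The share called over all genes was 12.7% in adult DH, 7.29% in aged DH and 5.99% in ageing. Klf9, a transcription factor that glucocorticoids also induce, rose in adult DH (LFC 0.23, limma adjusted p = 0.0413). Thrsp, a regulator of lipid synthesis, fell in adult DH (LFC -0.53, limma adjusted p = 0.00266) and with age (LFC -0.68, limma adjusted p = 0.009998), 2 comparisons that share the adult EH rats. Nrgn, which encodes the postsynaptic protein neurogranin, fell in adult DH (LFC -0.61, limma adjusted p = 0.0277) and in aged DH (LFC -0.67, limma adjusted p = 0.0345). Of the 6 markers of forebrain glutamatergic neurons, 3 also fell in aged DH and 0 were called in adult DH. Their part in the values of Nrgn was not tested. None of the 5 to 6 tested genes for handling thyroid hormone was called in any comparison by limma, while 1 in ageing, 0 in adult DH and 2 in aged DH had an unadjusted p under 0.05. Over all genes tested, 20.3% in ageing, 26.9% in adult DH and 21.4% in aged DH had such a p.

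Of the 8 tested targets of the sterol receptors, Scd fell in each comparison, though ageing shares its adult EH rats with adult DH and its aged EH rats with aged DH. The share called over all genes was 12.7% in adult DH, 7.29% in aged DH and 5.99% in ageing. Scd encodes a desaturase of fatty acids, and its LFC was -0.47 in adult DH, -0.34 in aged DH and -0.52 in ageing (limma adjusted p = 0.00547, 0.00918 and 0.00170). In ageing Lpcat3, which remodels phospholipids, also fell (LFC -0.19, limma adjusted p = 0.0220). Of the 9 tested genes of sex steroid synthesis and response, 2 rose in adult DH and 1 in aged DH. Hsd17b12, which elongates fatty acids and can reduce oestrone, rose at both ages (LFC 0.32 and 0.29, limma adjusted p = 6.40e-05 and 0.00376), and Greb1, an oestrogen response gene, rose in adult DH (LFC 0.33, limma adjusted p = 0.0365).

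Markers of the cell types in and around the punch moved in some of these comparisons. The share called over all genes was 12.7% in adult DH and 7.29% in aged DH. In adult DH 2 of 8 oligodendrocyte markers fell (Cnp and Opalin), and their summed level was 250147 to 319608 in DH and 261576 to 381832 in EH. In aged DH 1 of the 8 rose (Mobp), and the sum was 266697 to 316467 in DH and 242856 to 293785 in EH. Of 8 astrocyte markers none was called in adult DH and 1 rose in aged DH (Aldoc), and the sums overlapped, at 181788 to 215130 and 180632 to 213148 in adult DH and EH. Of the magnocellular markers 5 of 8 rose in adult DH and 4 of 8 in aged DH, while Oxt, Gal and Cartpt were called at neither age. The study describes Avp and Caprin2 as genes that respond to dehydration. More such cells and more RNA per cell cannot be told apart. The summed level of the 8 was 342066 to 450325 in adult DH and 229749 to 320397 in adult EH, with no overlap. In aged rats the sums overlapped, at 365475 to 582689 in DH and 294596 to 417628 in EH. Of the 6 tested marker genes of the thalamus, 2 rose in aged DH, Calb2 (LFC 0.41, limma adjusted p = 0.0137) and 1 of the 2 genes listed as Tcf7l2 (LFC 0.39, limma adjusted p = 0.00635). The others were not called: Prkcd had an LFC of -0.14, Plekhg1 0.07, Lef1 0.16 and the other Tcf7l2 gene 0.20. The sum of the thalamic markers was 6992 to 8838 in aged DH and 5676 to 6617 in aged EH, with no overlap, beside the 4 receptors called there. In adult DH 1 of the 6 rose (Calb2), and the sums overlapped. The blood markers, of which 1 of 5 fell at each age, had sums that overlapped. The part of these changes in the values of the receptors was not tested.

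Whether dehydration acted differently at the 2 ages was tested directly, as the LFC in aged rats less that in adult rats over all 20 rats. By limma 0 of the 29 members and 0% of the 15326 genes tested were called. At an unadjusted p under 0.05 there were 3 of the 29 and 1522 of all genes. On the recovered reads edgeR called 0 members and 0 of all genes, and DESeq2 called 0 members and 55 of all genes. The 3 members were Pgr (difference 0.39, SE 0.157, limma adjusted p = 0.423), Esrra (0.19, SE 0.0863, limma adjusted p = 0.471) and Esr2 (0.57, SE 0.274, limma adjusted p = 0.502). For Rxrg the difference was 0.13 with an SE of 0.122, for Nr2f2 -0.23 with an SE of 0.148 and for Nr2e1 0.23 with an SE of 0.124. Members called at a single age were therefore not shown to differ between the ages.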

How the data were processed

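Poly(A) RNA of SON punches from 20 male Wistar Han rats was measured, 5 in each of 4 groups, with groups and replicate numbers from the sample labels. Per the study's methods the libraries were TruSeq stranded and the build was Rn6. Per the submitters' processing notes reads were checked with FastQC, aligned with STAR and counted with featureCounts. The sources used here do not state the strand setting. The deposited signal values are read counts divided by DESeq2 size factors, which the authors estimated separately in 3 tables, 1 per comparison, so levels of different tables are not on 1 scale. The tables also hold the authors' DESeq2 fold changes, standard errors, p-values and group means, which were not used. All 30 per-sample columns were used.

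Genes with a mean of at least 10 were tested with limma 3.58.1 (R 4.3.3) on log2(value + 1), two-sided, with empirical Bayes moderation following the mean and an adjusted threshold of 0.05. The pseudocount of 1 understates changes of low genes. Whole reads were recovered in every library: each value was a whole multiple of 1 step within 0.1 read. Where a library's step lies near 1, high values settled it, and the 10 rats found in 2 tables gave equal reads in all genes. edgeR 4.0.16 and DESeq2 1.42.0 were run on these reads as alternatives. The main limma fit, edgeR and DESeq2 were tested on simulated data, with planted changes larger than most LFCs of the called members. The other alternatives and the ratio tests were not simulated. Ratios within a family, added after the values were seen, used exact permutation tests. The members, gene lists and tests were chosen with earlier results of these data known. By rule every member is accounted for, and per-rat values are given for members called or with an unadjusted p under 0.01. From the lists the called gene with the lowest adjusted p could be named, and the others were named after their values were seen. Some called genes of the lists are not reported here. Symbols matched genes uniquely for all 31 members. Same-numbered rats of different groups did not deviate together, so they were not paired. Alternatives changed the pseudocount, the filter, the scaling and the tool, and left out each rat.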

Additional observations from a re-analysis of the deposited data

Results flagged for a closer look

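In 3 of the 116 groups of 5 rats that were checked, a single rat lay apart from the others by Dixon's test at its 95% critical value of 0.71, where chance alone gives about 1 in 20 groups. Nr6a1 had 23.3 normalized counts in adult EH replicate 5, and 35.2 to 39.0 in the other adult EH rats. Ppard had 757 in aged DH replicate 5, and 698 to 707 in the other aged DH rats. Rara had 446 in aged EH replicate 1, and 386 to 397 in the other aged EH rats. None of these members was called in any comparison.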

How the results depend on the processing

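No value of a called member changed direction under any alternative run. With no filter on low values 0 members were called in ageing. With each rat left out, 0 to 1 members were called in ageing, 4 to 6 in adult DH, 1 to 4 in aged DH and 0 to 0 for the difference between the ages. In aged DH the count fell by over 1.5 times without aged EH replicate 4 or 5 or aged DH replicate 2, 3 or 5, and only Rxrg stayed called without aged EH replicate 5. The replicate block, which takes same-numbered rats as pairs, called 0 members in ageing (Thra, adjusted p = 0.0540 by limma), 3 in adult DH (Esr2, Rxrb and Rxrg) and 1 in aged DH (Rxrg). The same rats without the block, an alternative chosen after seeing the data, gave 3 and 1, so these 2 counts came with fewer rats. Deviations of same-numbered rats correlated between -0.08 and 0.16, and in 3 of 13 pairs a rat correlated best with its own number. With a minimum mean of 50 Esr2 was not tested in DH. In adult DH upper quartile and total scaling and DESeq2 each called 6 members, with Thra added. Scaling to equal totals moved the split of calls over all genes: 747 of 1049 were lower in ageing, against 507 of 921, and 1161 of 2051 in adult DH, against 762 of 1934. DESeq2 called 1295, 2256 and 1533 genes in ageing, adult DH and aged DH. The block over all genes called 980 in adult DH and 635 in aged DH.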

Other observations

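Genes for partners of the receptors were followed in the same way. Of all genes tested, 12.7% were called in adult DH, 7.29% in aged DH and 5.99% in ageing. Of 12 coactivator genes tested, 2 rose in adult DH: Ncoa7 (LFC 0.15, limma adjusted p = 0.00529) and Carm1, a methyltransferase of histones (LFC 0.12, limma adjusted p = 0.0498). In aged DH 1 of the 12 coactivators fell, Ncoa6 (LFC -0.19, limma adjusted p = 0.00708), and none of the 10 corepressor genes tested was called. In ageing 0 coactivators and 0 corepressors were called by limma, with 3 and 1 at an unadjusted p under 0.05. Over all genes tested in ageing, 20.3% had such a p. Of 7 genes regulated by the oestrogen-related receptors, Cycs, the cytochrome c gene, rose in aged DH (LFC 0.15, limma adjusted p = 0.0144), while none was called in adult DH or ageing. Neither of the 2 tested vitamin D handling genes was called in any comparison by limma.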
